A study of Mus musculus with 10 samples.

Results

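The 10 genes described here are markers of cortical interneurons: Gad1, Gad2, Slc32a1, Pvalb, Sst, Vip, Npy, Lhx6, Adarb2 and Erbb4. They were chosen by symbol, each symbol matched 1 gene of the 52636 in the count table, and all 10 were among the 18455 genes that had enough counts to be tested. The tissue sequenced was S1BF, the somatosensory field that maps the whiskers as barrels, taken from C57BL/6 mice on postnatal day 17. All libraries came from mice with the floxed Rxra allele (Rxratm1Krc/J), where Rxra encodes the retinoid X receptor alpha, a nuclear receptor. The 4 Loxp libraries are labelled as floxed Rxra with no Cre named, the 2 Hetero libraries as Nex-cre; Rxra cKO-Het, and the 4 cKO libraries as Nex-cre; Rxra cKO. Nex-cre places Cre in the Neurod6 locus, which is active in the excitatory lineage of the cortex, and the labels name it in the Hetero and cKO groups only, so these differ from Loxp in Cre as well as in Rxra. Whether the libraries of a group are separate animals is not said in the labels, and the p-values below measure only the spread between these samples.

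Interneurons are the local inhibitory neurons of the cortex and use GABA as transmitter. They are born in the ganglionic eminences below the cortex and migrate into it, and they lie outside the Nex lineage, so that the Cre of this cross is not directed at them. GABA is made by the glutamate decarboxylases Gad1 and Gad2 and loaded into vesicles by the transporter Slc32a1. The calcium-binding protein parvalbumin and the neuropeptides somatostatin and vasoactive intestinal peptide mark 3 large classes, and Npy is made by several classes. Lhx6 is a transcription factor of the lineage from the medial ganglionic eminence, Adarb2 marks the lineage from the caudal one, and Erbb4 is a neuregulin receptor that cortical interneurons carry. The comparison of genotypes here asks about cells beside those in which the receptor gene was to be deleted.

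Total counts were 19332990 to 26086337 per library. Rxra counts, which sum reads over the whole gene and over all cell types, were not lower in the libraries labelled cKO. They were 21.6 to 31.8 CPM (counts relative to the library total after TMM scaling) in Loxp, 23.2 and 26.4 in Hetero, and 29.0 to 32.3 in cKO, so they do not check the deletion, and Loxp, Hetero and cKO are used as the labels give them. Neurod6, the Cre locus, was at 54.8 ± 14.0 CPM (SD, n = 4) in Loxp and at 29.5 ± 7.29 (SD, n = 4) in cKO. Loxp 4, at 34.9 CPM, lay within the range of the Cre groups for this gene. In edgeR's quasi-likelihood test with Benjamini-Hochberg adjustment, no gene passed an adjusted p of 0.05 in any of the 3 comparisons. An unadjusted p under 0.05 was found for 466, 468 and 321 genes in the contrasts of cKO with Loxp, Hetero with Loxp and cKO with Hetero. These were 2.53, 2.54 and 1.74% of the genes tested, each below the share of 0.05 that p-values without any difference would give. Slc17a7, the vesicular glutamate transporter of cortical excitatory neurons, was at 2125 to 2612 CPM in all 10 libraries. This level does not check which field of the cortex was taken.

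Loxp 2 and cKO 2, which carry the same replicate number, stood apart from the other 8 libraries in several of these genes. They held the 2 lowest values of Gad1, Slc32a1, Pvalb, Sst and Npy among the 10 libraries. As a percentage of the mean of the other 3 Loxp libraries, Loxp 2 had 72.5% of the Gad1, 57.7% of the Slc32a1, 64.2% of the Pvalb, 56.8% of the Sst and 57.3% of the Npy. As a percentage of the mean of the other 3 cKO libraries, cKO 2 had 57.9% of the Gad1, 83.4% of the Slc32a1, 23.9% of the Pvalb, 73.7% of the Sst and 59.9% of the Npy. The other 5 markers were less low. In Loxp 2 they were at 85.0% (Lhx6) to 127% (Adarb2) of the mean of the other 3. In cKO 2 they were at 88.8% (Gad2) to 119% (Adarb2). Of these, Lhx6 was at its lowest of the 10 libraries in Loxp 2 and Gad2 in cKO 2. Vip was at its highest in Loxp 2 and Adarb2 in cKO 2. The fits were repeated with both libraries left out, a choice made after their values were seen.

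**Figure D1:**
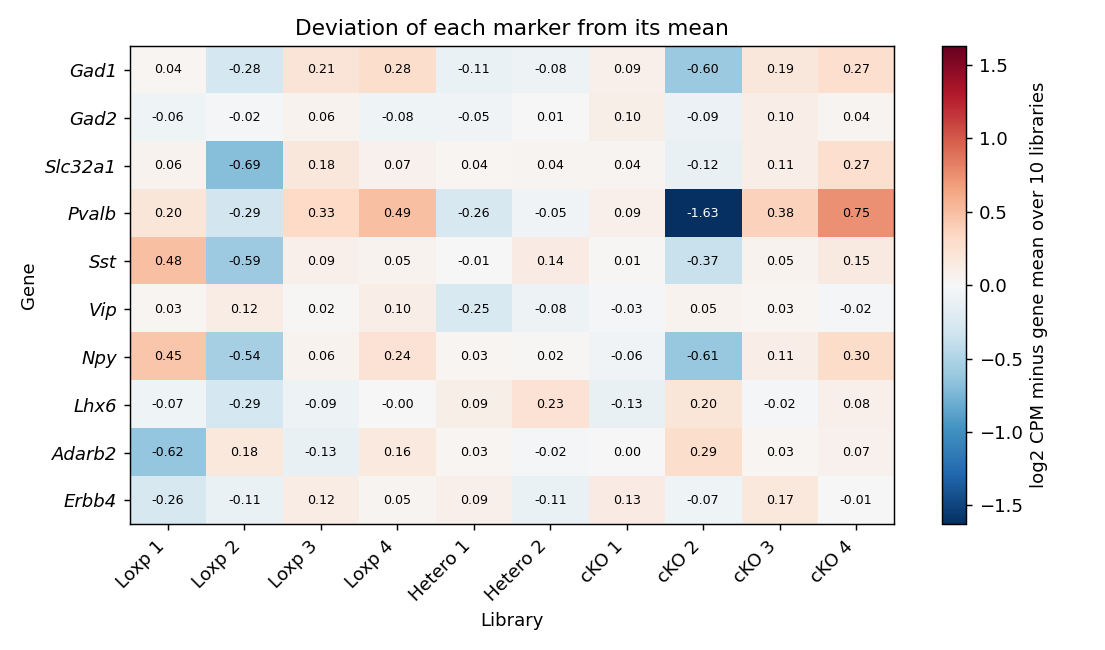
Log2 CPM of each of the 10 interneuron markers (rows) in each library (columns), as the difference from that gene's mean over the 10 libraries; each cell holds its value. Pvalb reached -1.63 in cKO 2 and 0.75 in cKO 4, while the values of Gad2 stayed between -0.09 and 0.10.

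None of the 10 interneuron markers passed the test in cKO against Loxp, where edgeR called 0% of all genes tested. The median log2 fold change of the 10 was 0.0057, with 5 higher and 5 lower, beside a median of 0.0003 over all genes tested. Without Loxp 2 and cKO 2, 7 were higher and 3 lower, with a median of 0.04. No marker had an unadjusted p under 0.05 there, against 2.53% of all genes. For none of the 10 did the cKO and Loxp libraries fall into separate ranges, against 1.54% of all genes. In bulk tissue, fewer cells of a type and less RNA per cell cannot be told apart, so these are levels of the transcript in the tissue.

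The markers of GABA synthesis and release differed in how steady they were. Gad2 (mm10 chromosome 2, 22622205 to 22693874, plus strand), which makes GABA mainly at nerve terminals, was at 137, 141, 149 and 136 CPM in Loxp 1 to 4, at 138 and 144 in Hetero, and at 153, 135, 154 and 148 in cKO 1 to 4. Its highest library was 1.14 times its lowest, and the 3 genotypes overlapped. Among tested genes within 0.5 log2 units of its level, Gad2 had a standard deviation over the 10 libraries (log2 CPM) at the 10.7 percentile. For Gad2 the fitted log2 fold change between cKO and Loxp was 0.07 (SE 0.0714, 95% interval -0.09 to 0.22; edgeR adjusted p 0.9998).

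Gad1 (chromosome 2, 70553072 to 70602014, plus strand), the enzyme that makes most of the brain's GABA, had 264, 212, 299 and 314 CPM in Loxp 1 to 4, 238 and 243 in Hetero, and 274, 169.6, 294 and 311 in cKO 1 to 4. Its low values were those of Loxp 2 and cKO 2, and the 3 genotypes overlapped. Slc32a1 (chromosome 2, 158610767 to 158615748, plus strand), the vesicular GABA transporter, had 129.8, 77.3, 142 and 131 CPM in Loxp 1 to 4, 128 and 128 in Hetero, and 128, 115, 135 and 150.5 in cKO 1 to 4. Without Loxp 2 and cKO 2, its 8 libraries spanned 128 to 150.5 CPM. Fitted between cKO and Loxp, the log2 fold change was -0.05 for Gad1 (SE 0.165, 95% interval -0.41 to 0.30) and 0.14 for Slc32a1 (SE 0.152, 95% interval -0.19 to 0.47). With both libraries left out they were 0.0097 for Gad1 and 0.05 for Slc32a1. Slc32a1 shares 697 exon bases with an antisense gene of the annotation that had at most 1 count in a library.

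Pvalb had the widest spread of the 10 markers. Pvalb (chromosome 15, 78191114 to 78206400, minus strand) encodes parvalbumin, the calcium buffer of fast-spiking basket and chandelier cells, which rises as these cells mature. Its CPM were 64.8, 45.9, 70.6 and 79.3 in Loxp 1 to 4, 46.8 and 54.3 in Hetero, and 59.8, 18.1, 73.3 and 94.6 in cKO 1 to 4. The cKO group held both the lowest and the highest library, 5.21 times apart, and Pvalb's standard deviation (log2 CPM) was at the 99.7 percentile of tested genes of like level. Between cKO and Loxp, Pvalb had a log2 fold change of -0.08 (SE 0.338), and its 95% interval of -0.81 to 0.64 was the widest of the 10 markers. Leaving out cKO 2 moved it to 0.22, leaving out cKO 4 to -0.37, and leaving out Loxp 2 and cKO 2 together to 0.09. Relative to the mean of Gad1, Gad2 and Slc32a1 (log2 CPM), Pvalb lay at -1.36 ± 0.15 (SD, n = 4) in Loxp and at -1.70 ± 0.844 (SD, n = 4) in cKO, a difference smaller than the spread within cKO.

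Several other genes known from parvalbumin cells were low in cKO 2 as well, but not all. Over a list of 12 such genes that includes Pvalb, the mean log2 deviation from each gene's mean was -0.55 in cKO 2 and -0.27 in Loxp 2, against -0.04 to 0.23 in the other 8 libraries. Syt2, the synaptotagmin of parvalbumin cell terminals, was at 25.7 CPM in cKO 2 and at 49.3 to 85.0 in the others. Hapln1 was instead highest in cKO 2, at 54.4 CPM against 31.1 to 50.5 in the others. Cplx1, Cox6a2 and Pthlh lay within the range of the others in cKO 2, and the rest of the 12 were lowest there. In cKO against Loxp, 3 of the 12 genes were higher and 9 lower with none called (median log2 fold change -0.04); with Loxp 2 and cKO 2 left out, 7 were higher and 5 lower (median 0.01). Pvalb is itself on the list, a relation of these counts to its level was not tested, and no gene of the list passed the test.

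**Figure D2:**
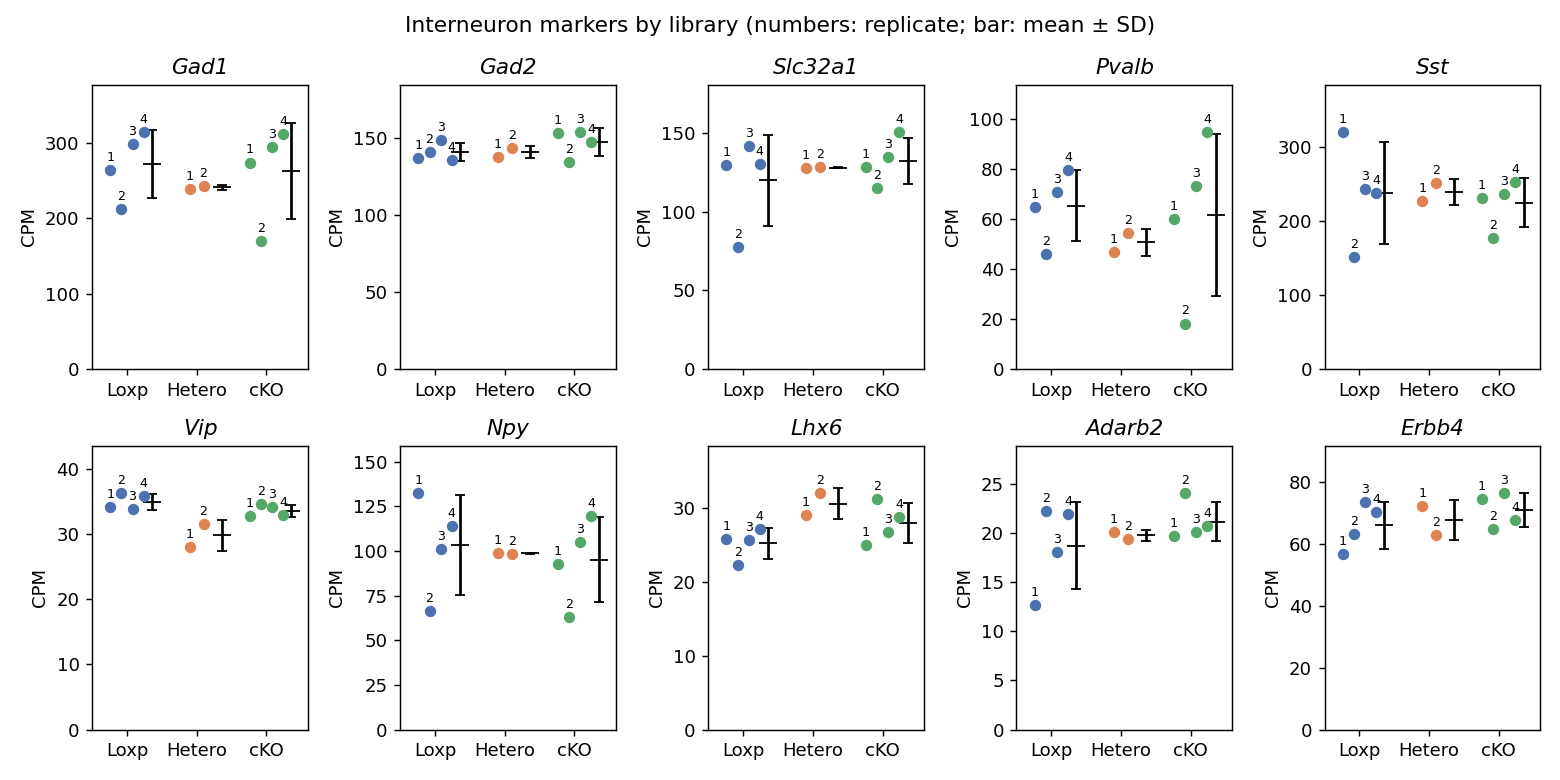
CPM (linear axis from 0) of each interneuron marker in the 10 libraries, by genotype; points carry the replicate number and the bar beside them is the mean ± SD (n = 4, 2 and 4). Replicate 2 of Loxp and replicate 2 of cKO are the 2 lowest points for Gad1, Slc32a1, Pvalb, Sst and Npy, while the points of Gad2 lie between 135 and 154.

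The 3 neuropeptide genes did not move together. Sst (chromosome 16, 23889573 to 23890958, minus strand) encodes somatostatin, the inhibitory peptide of Martinotti and related cells. Its CPM were 319.7, 151, 243 and 237 in Loxp 1 to 4, 227 and 251 in Hetero, and 231, 177, 237 and 253 in cKO 1 to 4. Loxp held the lowest and the highest library of Sst, 2.11 times apart, and enclosed the other genotypes. Npy (chromosome 6, 49822710 to 49829507, plus strand), neuropeptide Y, is made by neurogliaform cells and part of the somatostatin cells. It had 132, 66.4, 101 and 114 CPM in Loxp 1 to 4, 99.0 and 98.3 in Hetero, and 92.8, 63.3, 105 and 119 in cKO 1 to 4, with Loxp 2 and cKO 2 low in both. Between cKO and Loxp, the fitted log2 fold change was -0.08 for Sst (SE 0.176, 95% interval -0.46 to 0.30) and -0.12 for Npy (SE 0.198, 95% interval -0.55 to 0.31). With Loxp 2 and cKO 2 left out they were -0.14 for Sst and -0.13 for Npy.

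Vip (chromosome 10, 5639218 to 5647617, plus strand) encodes vasoactive intestinal peptide, the mark of cells that mostly inhibit other interneurons. It was steady within genotypes, at 34, 36.3, 33.7 and 35.7 CPM in Loxp 1 to 4, 28 and 31.5 in Hetero, and 32.7, 34.5, 34.1 and 32.9 in cKO 1 to 4. Both Hetero libraries lay below each of the other 8. Loxp and cKO overlapped, with a log2 fold change of -0.06 (SE 0.0729, 95% interval -0.22 to 0.10; edgeR adjusted p 0.9998). Loxp 2 and cKO 2 were not low for Vip, unlike for Sst and Npy.

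The promoters of the 3 peptide genes are shown because Sst is a textbook target of CREB, the factor that binds the cAMP response element (CRE), and because the data set Sst and Npy apart from Vip. The sequences are the 150 bases before the start of each gene from RefSeq (GRCm38.p6), read 5′ to 3′ on the gene's strand: chr16:23890845-23890994 (minus) for Sst, chr6:49822560-49822709 (plus) for Npy and chr10:5639068-5639217 (plus) for Vip. Capitals mark matches to the full CRE TGACGTCA or to its short form TGACG, searched on both strands; the full element contains the short form. The RefSeq start of Sst lies inside the span that GENCODE M21 gives for the gene, so most of its window overlaps that span, while the windows of Npy and Vip end just before the GENCODE start.
Sst: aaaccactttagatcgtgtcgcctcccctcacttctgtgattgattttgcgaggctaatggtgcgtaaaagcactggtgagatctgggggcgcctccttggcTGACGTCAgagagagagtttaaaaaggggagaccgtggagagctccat
Npy: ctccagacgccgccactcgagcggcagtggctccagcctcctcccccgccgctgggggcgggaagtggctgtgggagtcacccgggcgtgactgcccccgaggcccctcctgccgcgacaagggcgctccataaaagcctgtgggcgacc
Vip: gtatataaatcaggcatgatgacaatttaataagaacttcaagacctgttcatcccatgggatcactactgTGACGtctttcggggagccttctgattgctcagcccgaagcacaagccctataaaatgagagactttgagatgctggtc

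The Sst promoter holds the full element at positions -48 to -41 from the RefSeq start. The Vip promoter holds the short form at -79 to -75, and the letters of neither are in the window of Npy. Over 32851 RefSeq promoter windows of 300 bases (250 before to 50 after the start), 1.79% hold the full element and 20.8% the short form. All 10 markers were matched to windows; the short form is in those of Gad2, Sst and Vip, and TAATTA, the core of many homeodomain sites, is in that of Adarb2 only, against 5.29% of all windows. Sst, with the full element, and Npy, without these letters, were low in the same 2 libraries, and Vip was not. A relation of these letters to the levels was not tested.

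Among the lineage and receptor markers, Lhx6 and Erbb4 varied less between libraries than Sst and Npy. Lhx6 (chromosome 2, 36081953 to 36105408, minus strand) had 25.8, 22.2, 25.6 and 27.2 CPM in Loxp 1 to 4, 29.0 and 32.0 in Hetero, and 24.9, 31.1, 26.7 and 28.8 in cKO 1 to 4. Both Hetero libraries lay above every Loxp library, and cKO overlapped both groups. Lhx6 was lowest in Loxp 2 and second highest in cKO 2, so the libraries that were low for Sst and Pvalb lay at opposite ends for the regulator of the lineage that makes those cells. Between cKO and Loxp, Lhx6 had a log2 fold change of 0.15 (SE 0.0947, 95% interval -0.06 to 0.35), and of 0.04 (SE 0.0887) without Loxp 2 and cKO 2. Lhx6 shares 104 exon bases with a small RNA gene that had at most 2 counts in a library.

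Adarb2 (chromosome 13, 8202866 to 8768747, plus strand), a relative of the RNA-editing deaminases, had 12.7, 22.2, 18.0 and 21.9 CPM in Loxp 1 to 4, 20.1 and 19.4 in Hetero, and 19.7, 24.1, 20.1 and 20.7 in cKO 1 to 4. Loxp 1 was lowest for Adarb2 and highest for Sst. Erbb4 (chromosome 1, 68032186 to 69108059, minus strand) had 56.6, 63.0, 73.6 and 70.3 CPM in Loxp 1 to 4, 72.1 and 62.9 in Hetero, and 74.4, 64.8, 76.3 and 67.6 in cKO 1 to 4, and its genotypes overlapped. Between cKO and Loxp, the log2 fold change stood at 0.17 for Adarb2 (SE 0.149, 95% interval -0.15 to 0.50) and 0.10 for Erbb4 (SE 0.0958, 95% interval -0.10 to 0.31).

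Compared per length, as the deposited FPKM (fragments scaled by transcript length and library depth), Sst and Npy stood above the other 8 markers. Sst was highest, with a median of 394 FPKM over the 10 libraries (range 251 to 530), followed by Npy at 175 (111 to 232) and Pvalb at 59.5 (17.3 to 90.4). Slc32a1 followed at 45.8 FPKM, Gad1 at 35.0, Gad2 at 24.1 and Vip at 9.87. Lhx6 was at 5.59 FPKM, Erbb4 at 5.56 and Adarb2 at 1.53. The ranges over the libraries were separate between Sst and Npy, Npy and Pvalb, Gad2 and Vip, Vip and Lhx6, and Erbb4 and Adarb2. Neighbours from Pvalb to Gad2, and Lhx6 with Erbb4, overlapped in their ranges.

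In Hetero against Loxp, Vip was lower and Lhx6 higher without passing the test. Vip averaged 29.8 ± 2.42 CPM (SD, n = 2) in Hetero and 34.9 ± 1.24 (SD, n = 4) in Loxp, for a fitted log2 difference of -0.23 (SE 0.0907, 95% interval -0.43 to -0.04; edgeR unadjusted p 0.0239, adjusted p 0.9998). Lhx6 averaged 30.5 ± 2.08 CPM (SD, n = 2) in Hetero and 25.2 ± 2.09 (SD, n = 4) in Loxp, for a fitted log2 difference of 0.28 (SE 0.115, 95% interval 0.03 to 0.52; edgeR unadjusted p 0.0323, adjusted p 0.9998). These 2 of the 10 markers had an unadjusted p under 0.05, against 2.54% of all genes, and edgeR called 0% of genes at the adjusted threshold. The same 2 were the markers whose Hetero and Loxp libraries did not overlap, against 11.4% of all genes, a share that is high because Hetero has 2 libraries. The unadjusted p of Lhx6 was over 0.05 without Loxp 2 or without Hetero 2, and that of Vip without Hetero 1, where the log2 fold change of Vip was -0.15. With no low-count filter the unadjusted p of Vip was 0.0689.

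The other 8 markers had log2 fold changes from -0.37 (Pvalb, SE 0.423) to 0.10 (Slc32a1, SE 0.185) in Hetero against Loxp. The median over the 10 markers was 0.0047, with 6 higher and 4 lower, beside -0.0068 over all genes. With Loxp 2 and cKO 2 left out, Pvalb stood at -0.50 (edgeR unadjusted p 0.0100) and Gad1 at -0.27 (unadjusted p 0.0109). In that fit Vip stood at -0.21 (edgeR unadjusted p 0.0415) and Lhx6 at 0.23 (unadjusted p 0.0409). The smallest adjusted p of the 10 markers was 0.921. Both libraries were left out after their values were seen, Pvalb and Gad1 among them, so these unadjusted p-values are no test of the differences. Sst then stood at -0.15 and Npy at -0.23, and 4 of the 10 were higher and 6 lower, with a median of -0.10. In that fit 11 of the 12 striatal markers (median -0.50), all 8 oligodendrocyte markers (median -0.30) and 11 of 12 parvalbumin cell genes (median -0.19) were lower in Hetero too, and their part in these values was not tested.

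In cKO against Hetero, which shares its libraries with the other 2 comparisons, no marker passed either (edgeR called 0% of genes). The 10 markers had a median log2 fold change of 0.07, with 7 higher and 3 lower, beside 0.0078 over all genes, and none had an unadjusted p under 0.05 against 1.74% of all genes. Vip was the marker whose libraries were separate, with all 4 cKO libraries above both of Hetero, against 9.43% of all genes. Its log2 fold change was 0.17 (SE 0.0905, 95% interval -0.02 to 0.37; edgeR adjusted p 0.9999). Pvalb had the value farthest from 0, at 0.28 (SE 0.421, 95% interval -0.63 to 1.19), and stood at -0.0062 without cKO 4. With Loxp 2 and cKO 2 left out, Pvalb stood at 0.59 (edgeR unadjusted p 0.00363) and Gad1 at 0.28 (unadjusted p 0.00889). The smallest adjusted p of the 10 was 0.9999. Both libraries were left out after their low Pvalb and Gad1 were seen, so these unadjusted p-values are no test of the differences. Of the 10 markers 9 were then higher in cKO and 1 lower (median 0.11). So were 11 of the 12 striatal markers (median 0.38) and all 8 oligodendrocyte markers (median 0.21), and their part in these values was not tested.

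**Figure D3:**
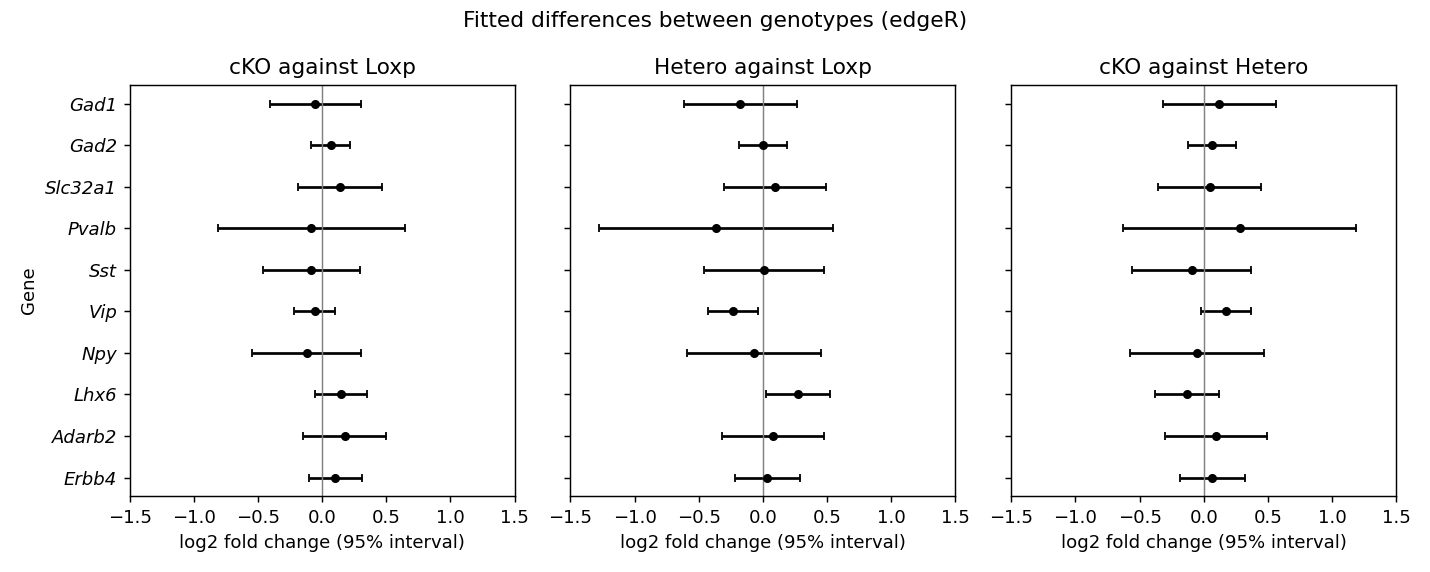
Fitted log2 fold change (point) and 95% interval (bar) of each interneuron marker in the 3 comparisons, from edgeR over all 10 libraries. The intervals of Vip (-0.43 to -0.04) and Lhx6 (0.03 to 0.52) in Hetero against Loxp lie beside 0, those of the other markers and comparisons include it, and Pvalb has the widest intervals.

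Across the 10 libraries, Pvalb followed Gad1 and Npy followed Sst. The correlation of Gad1 with Pvalb (log2 CPM, n = 10) was Pearson's r = 0.961 (permutation p 3e-05, Benjamini-Hochberg adjusted 0.00135 over 45 pairs) and Spearman's rho = 0.964 (permutation p 7e-05, adjusted 0.00315). Without the 2 libraries farthest from the median of Gad1, cKO 2 and Loxp 2, r was 0.933, and with each genotype centred on its mean it was 0.963. Gad1 and Pvalb thus varied together within genotypes, over a range of 1.85 times for Gad1 and 5.21 times for Pvalb.

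Sst and Npy correlated at r = 0.930 (permutation p 0.00065, adjusted 0.0146) and rho = 0.806 (permutation p 0.00684, adjusted 0.0616), at 0.921 without Loxp 1 and Loxp 2, the farthest from the median of Sst, and at 0.793 without Loxp 2 and cKO 2. Of the 45 pairs, 4 had an adjusted permutation p under 0.05 by Pearson's r and 3 by Spearman's rho. By rho the other pairs were Slc32a1 with Pvalb, at rho = 0.939 (permutation p 0.00016, adjusted 0.0036) and r = 0.470 (permutation p 0.127, adjusted 0.381), and Gad1 with Slc32a1, at rho = 0.903 (permutation p 0.0009, adjusted 0.0135) and r = 0.627 (permutation p 0.0766, adjusted 0.313). Without the 2 libraries farthest from the median of the first gene, r was 0.873 for Slc32a1 with Pvalb (Loxp 2 and cKO 4) and 0.671 for Gad1 with Slc32a1 (cKO 2 and Loxp 2). Without Loxp 2 and cKO 2, r was 0.776 for Slc32a1 with Pvalb. By r, Pvalb with Npy was another, at r = 0.811 (permutation p 0.0018, adjusted 0.027) and rho = 0.830 (adjusted 0.0507). For this pair r was 0.653 without cKO 2 and cKO 4, and 0.535 without Loxp 2 and cKO 2. Gad1 with Npy, at r = 0.83 (permutation p 0.00378, adjusted 0.0425) and rho = 0.721 (permutation p 0.0231, adjusted 0.148), fell to 0.332 without cKO 2 and Loxp 2 and rests on them. Gad1 with Gad2, the enzymes of the same reaction, reached r = 0.520 (permutation p 0.121, adjusted 0.381) and rho = 0.370 (permutation p 0.296).

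**Figure D4:**
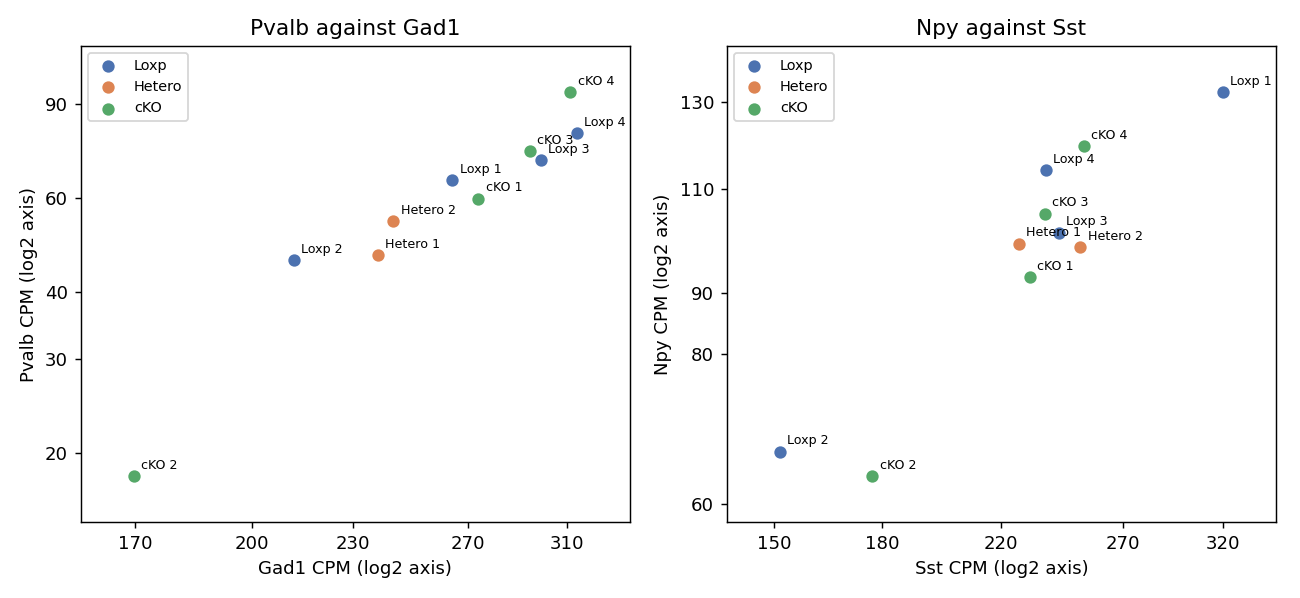
Pvalb against Gad1 (left) and Npy against Sst (right), in CPM on log2 axes, 1 point per library, coloured by genotype. In both panels the genotypes mix along the trend, with cKO 2 and Loxp 2 at the lower end, and r is 0.961 on the left and 0.930 on the right.

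The genes most like each marker over the 10 libraries were taken as the 3 tested genes with the highest Pearson's r of log2 CPM, a description over 18455 genes with no test. Pvalb was closest to Snap25 (r = 0.994), the synaptic fusion protein of neurons in general, then to Serpini1 (0.990) and Arpp19 (0.984). Slc32a1 was closest to Dnm1 (0.992), dynamin 1 of synaptic vesicle recycling, then to Eef1a2 (0.971) and Tubb4a (0.965). Gad1 was closest to Epb41 (0.977), Sst to Ndufa4 (0.979), a mitochondrial protein, and Npy to Hrh3 (0.988), the histamine H3 receptor. The nearest genes of Pvalb and Slc32a1 are thus not restricted to interneurons by what is known of them. Gad2 and Vip had weaker neighbours, with Napb (0.905) and Crot (0.927), and r for Vip with its second neighbour Gpc5 went from 0.892 to 0.450 without the 2 Hetero libraries. Lhx6 was closest to Irak1 (0.942), Adarb2 to Fyco1 (0.966) and Erbb4 to Eloa (0.960).

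Markers of cells next to the cortex moved with the same 2 libraries. Striatal projection neurons also use GABA and express Gad1, Gad2 and Slc32a1, and they lie below the cortex. A list of 12 striatal markers summed to 393 to 1392 CPM in Loxp, 674 to 863 in Hetero and 363 to 1286 in cKO, lowest in Loxp 2 and cKO 2. Drd2, the dopamine D2 receptor, was at 1.67 CPM in Loxp 2 and 1.77 in cKO 2 and at 7.18 to 23.1 in the other 8. Ppp1r1b (DARPP-32) was at 100.4 CPM in Loxp 2, 83.5 in cKO 2 and 524 in Loxp 1. Gad1 was at 212 CPM in Loxp 2 and 169.6 in cKO 2, its lowest values. Slc32a1 was at 77.3 CPM in Loxp 2 and 115 in cKO 2, also its lowest, while Gad2 spanned 135 to 154 CPM over all libraries. The part of striatal RNA in these levels was not tested.

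Glial markers differed in cKO 2 too. Its 8 oligodendrocyte markers deviated by -0.76 on average (log2), against -0.38 to 0.35 in the other libraries. Its 6 markers of oligodendrocyte precursors deviated by 0.67, against -0.17 to 0.18 elsewhere, with Pdgfra, the growth factor receptor of these precursors, at 111 CPM against 54.7 to 76.9. Choroid plexus markers were high in Hetero 2 alone, with a sum of 735 CPM against 3.03 to 22.7 in the other 9 libraries. The 10 excitatory markers summed to 2942 to 3449 CPM.

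Of 30 relations between the 10 interneuron markers and the striatal, oligodendrocyte and precursor lists (log2 level, n = 10), 9 had an adjusted permutation p under 0.05 by Pearson's r and 0 by Spearman's rho. Sst followed the striatal list with r = 0.842 (permutation p 0.00515, adjusted 0.0427) and rho = 0.600 (permutation p 0.0732, adjusted 0.241), and with r = 0.431 without cKO 2 and Loxp 2. Npy followed it with r = 0.826 (permutation p 0.00648, adjusted 0.0427) and rho = 0.624 (permutation p 0.0611, adjusted 0.241), and 0.212 without them, so these relations rest on the same 2 libraries. So did Gad1, with r = 0.758 (permutation p 0.0111, adjusted 0.0427) and rho = 0.515 (permutation p 0.133, adjusted 0.284), and 0.105 without them. Pvalb ran against the precursor list with r = -0.858 (permutation p 0.0122, adjusted 0.0427) and rho = -0.455 (permutation p 0.192, adjusted 0.338), and -0.05 without them. Adarb2 ran against the striatal list with r = -0.719 (permutation p 0.0128, adjusted 0.0427) and rho = -0.745 (permutation p 0.0171, adjusted 0.241), and kept -0.665 without those libraries. Gad1 followed the oligodendrocyte list with r = 0.773 (permutation p 0.0115, adjusted 0.0427) and rho = 0.758 (permutation p 0.0144, adjusted 0.241), and with 0.562 without cKO 2 and Hetero 2. For Pvalb the same list gave r = 0.761 (permutation p 0.00948, adjusted 0.0427) and rho = 0.673 (permutation p 0.0391, adjusted 0.241), and 0.50 without them. Lhx6 with the striatal list had r = -0.174 (permutation p 0.627, adjusted 0.672) and rho = -0.442 (permutation p 0.203, adjusted 0.338), but -0.850 without cKO 2 and Loxp 2. The part of striatal or glial RNA in the low values of Loxp 2 and cKO 2 was not tested.

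**Figure D5:**
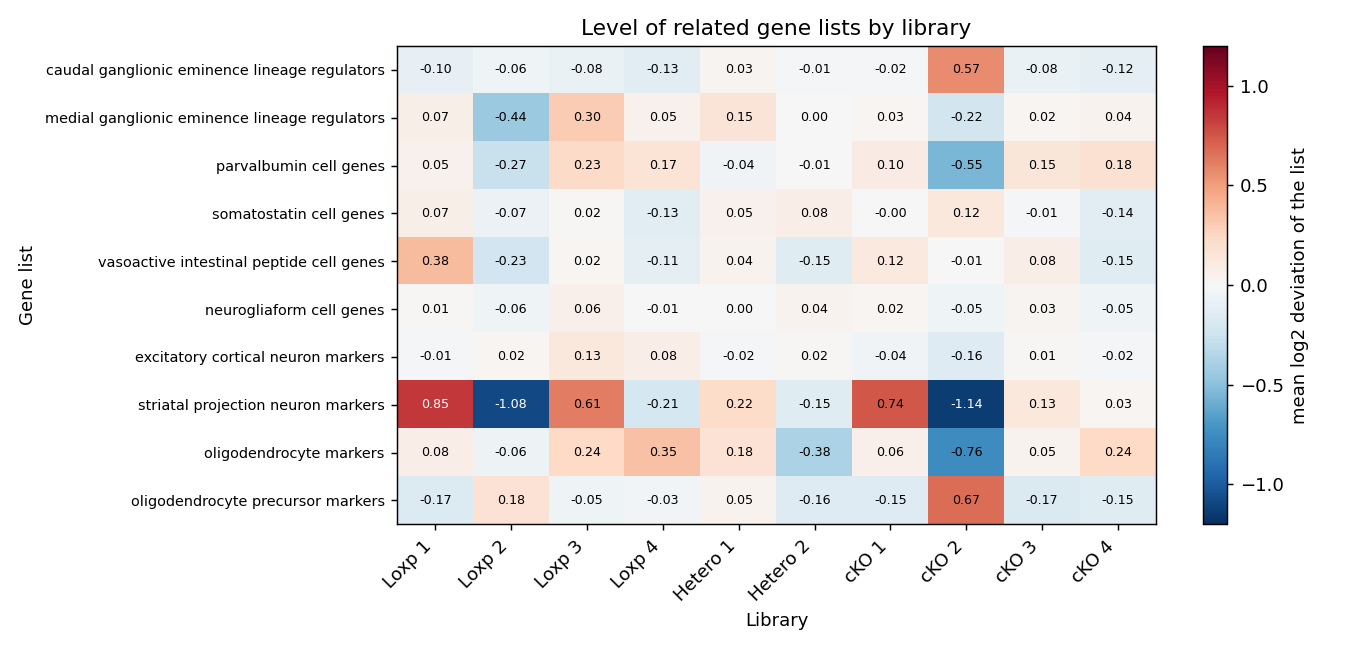
Mean log2 deviation of 10 gene lists (rows) from their genes' means in each library (columns), with each value in its cell. Striatal markers were lowest in Loxp 2 (-1.08) and cKO 2 (-1.14), and cKO 2 also held the extreme value of the parvalbumin cell (-0.55), oligodendrocyte (-0.76), precursor (0.67) and caudal lineage (0.57) lists.

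The genes around the markers gave no call in any comparison. Of 9 genes of GABA synthesis, packaging, uptake and breakdown, 7 were higher and 2 lower in cKO against Loxp (median log2 fold change 0.07), and all 9 were higher without Loxp 2 and cKO 2 (median 0.11), none called. Of 9 regulators of the medial lineage, 4 were higher (median -0.03), and 5 were without those libraries (median 0.02). Of 7 tested regulators shared by interneurons, 6 were higher (median 0.04), but 3 were higher and 4 lower without those libraries (median -0.0045); the progenitor factor Gsx2 had too few counts.

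All 8 regulators and markers of the caudal lineage were higher in cKO than in Loxp, by a median log2 fold change of 0.16, with none called. Nr2f2, a nuclear receptor of that lineage, was at 9.50, 9.74 and 12.1 CPM in 3 cKO libraries and at 38.6 in cKO 2, against 9.53 to 12 in Loxp. Its fitted log2 difference of 0.69 (SE 0.370, adjusted p 0.9998 in edgeR) became 0.01 with Loxp 2 and cKO 2 left out, and the list then had 4 higher and 4 lower with a median of -0.01. Prox1, a homeobox factor of the same lineage, stood at 0.17 (SE 0.105), and at 0.21 without those libraries.

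Genes of the somatostatin cells did not share 1 direction: 5 of 12 were higher in cKO and 7 lower (median log2 fold change -0.03), and 7 higher and 5 lower without Loxp 2 and cKO 2 (median 0.05). Nos1, the neuronal nitric oxide synthase of a long-range subset, averaged 32.5 CPM in cKO and 25.8 in Loxp (log2 fold change 0.33, SE 0.120; edgeR unadjusted p 0.0157, adjusted p 0.9998), and 0.17 without Loxp 2 and cKO 2, where cKO 2 had been highest at 40.1 CPM. Pdyn, the dynorphin precursor, averaged 37.3 CPM in cKO and 31.9 in Loxp (log2 fold change 0.22, SE 0.0842; edgeR unadjusted p 0.0189, adjusted p 0.9998).

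Of 12 genes of vasoactive intestinal peptide cells, 5 were higher (median -0.03), and of 10 neurogliaform cell genes, 4 were higher (median -0.02). Without Loxp 2 and cKO 2, the former had 2 higher and 10 lower (median -0.04). The neurogliaform cell genes then had 4 higher and 6 lower (median -0.06). Lamp5, a membrane protein of neurogliaform cells that some excitatory neurons also make, stood at -0.29 (SE 0.147), with cKO 2 at 120.1 CPM and the other 9 libraries at 197 to 241, and at -0.14 without Loxp 2 and cKO 2. In neuregulin and ErbB signalling, around the receptor Erbb4, 7 of 10 genes were higher (median 0.09), and 6 were without Loxp 2 and cKO 2 (median 0.04). The Erbb4 ligand Nrg1 averaged 14.4 CPM in cKO and 12.3 in Loxp, for a fitted log2 difference of 0.23 (SE 0.118, edgeR adjusted p 0.9998). Without those libraries Nrg1 stood at 0.17. Of 10 tested receptors for the peptides somatostatin, neuropeptide Y and vasoactive intestinal peptide, 6 were higher (median 0.02), and 7 were without Loxp 2 and cKO 2 (median 0.02).

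Peptides and secreted factors that neuronal activity is known to regulate were higher for 3 of 14 and lower for 11 in cKO against Loxp (median log2 fold change -0.12), with none called. Loxp 1 was the highest library for this list, with a mean log2 deviation of 0.39 and a sum of 2573 CPM, against at most 0.13 and 2022 CPM in the other 9. It was highest for the striatal list as well (mean log2 deviation 0.85), and the part of either in these counts was not tested. The list holds Sst, Npy and Vip among its 14. Bdnf, a neurotrophin of excitatory neurons, had 33.8, 29.4, 32.0 and 23.0 CPM in Loxp 1 to 4 and 21.8, 17.0, 26.6 and 20.4 in cKO 1 to 4, which overlap. Its log2 fold change was -0.46 (SE 0.141; edgeR unadjusted p 0.00597, adjusted p 0.9998). Nptx2, a pentraxin that excitatory neurons release onto parvalbumin cells, averaged 114 CPM in cKO and 142 in Loxp, for a fitted log2 difference of -0.32 (SE 0.135; edgeR unadjusted p 0.0353, adjusted p 0.9998). With Loxp 2 and cKO 2 left out, 2 of the 14 were higher and 12 lower (median -0.13), with Bdnf at -0.36 and Nptx2 at -0.30. Over the same lists in Hetero against Loxp, medians ran from -0.17 (shared regulators, 3 of 7 higher) to 0.10 (somatostatin cell genes, 9 of 12 higher), and no gene was called.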

How the data were processed

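From each S1BF sample, 3 µg of RNA entered library preparation with the NEBNext Ultra RNA kit, per the labels' protocols. Per the submitters' processing notes, the authors used featureCounts 1.5.0-p3 and the mm10 build; the sources used here do not name aligner or annotation. The deposited counts were used for each test and the deposited FPKM for levels between genes. The authors' own test columns were not used.

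The 10 markers, the related lists and the tests were chosen with earlier results of these data known. Counts were fitted with edgeR 4.0.16 (R 4.3.3): TMM, filterByExpr, glmQLFit with a mean per genotype over all 10 libraries (n = 4, 2 and 4), and glmQLFTest, with Benjamini-Hochberg adjustment over 18455 genes and a threshold of 0.05. CPM used TMM-scaled totals, and log2 CPM a prior count of 2. The script was tested on simulated data. Correlations had 1e+05 permutations, two-sided. Gene spans came from GENCODE M21 (mm10), promoters from RefSeq GRCm38.p6. All 10 markers are named; of each related list up to 3 genes with the smallest p in cKO against Loxp or its defining markers. For likeness, genes had a mean log2 CPM over 0 and a symbol that is no model number, clone name or pseudogene. Alternatives were DESeq2 size factors, library totals, no filter, 1 CPM in 4 libraries, the compared groups alone, a replicate block, DESeq2 1.42.0, limma-voom (limma 3.58.1), other log scalings, each library left out, and, added later, Loxp 2 and cKO 2 left out.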

Additional observations from a re-analysis of the deposited data

How the results depend on the processing

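No marker passed an adjusted p of 0.05 in any of the 3 comparisons under any alternative run. Over all genes, edgeR called 32, 68 and 39 genes without the low-count filter, and DESeq2 0, 16 and 3, for the contrasts of cKO with Loxp, Hetero with Loxp and cKO with Hetero. Leaving out Hetero 1 gave 15 and 14 in the last 2, and leaving out cKO 2 gave 1 in the first. The replicate numbers did not pair the samples by the rule used. Same-numbered Loxp and cKO libraries correlated at 0.0952, 0.199, 0.0419 and 0.322 in their deviations from the group mean. Each was above its best match with another number (at most 0.0349), a hint from the data and not the design. Deviations within a group cancel out, so a positive match with 1 number pushes the matches with the others down. Pairs with Hetero stood at -0.0257 to 0.023. The 2 Hetero libraries deviate as mirror images, so a value with Hetero 1 fixes that with Hetero 2. The replicate block called 1, 1 and 0 genes. Under the block the median of the markers in cKO against Hetero moved to -0.13, with Gad1 at -0.13, Slc32a1 at -0.13, Pvalb at -0.34 and Erbb4 at -0.0088; in Hetero against Loxp Gad1 stood at 0.0625, Pvalb at 0.12 and Npy at 0.16. With Loxp 2 and cKO 2 left out, the sign also turned for Gad1 (0.0097) and Pvalb (0.0894) in cKO against Loxp, Slc32a1 (-0.0594) and Sst (-0.15) in Hetero against Loxp, and Sst (0.0073) and Npy (0.10) in cKO against Hetero. Leaving out single libraries, the log2 fold change in cKO against Loxp ran from -0.16 to 0.11 for Gad1, -0.0197 to 0.23 for Slc32a1, -0.37 to 0.22 for Pvalb, -0.25 to 0.0924 for Sst and -0.28 to 0.0332 for Npy. In Hetero against Loxp it ran from -0.0263 to 0.0328 for Gad2, -0.0652 to 0.19 for Slc32a1, -0.16 to 0.18 for Sst, -0.23 to 0.0711 for Npy, -0.0682 to 0.17 for Adarb2 and -0.0645 to 0.13 for Erbb4. In cKO against Hetero it ran from -0.0255 to 0.10 for Slc32a1, -0.0062 to 0.58 for Pvalb, -0.16 to 0.0048 for Sst, -0.18 to 0.10 for Npy and -0.027 to 0.17 for Erbb4. The cause of these turns was not tested, and each of these fold changes lies within the 95% interval of its fit over all 10 libraries. The lowest marker, Adarb2, was at 12.7 CPM or more, with 264 counts in Loxp 1, and the part of depth in these values was not tested. With 1 Hetero library left, its spread was assumed to be that of the other groups.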
